A study of Mus musculus with 6 samples.

Results

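A group of 6 eosinophil granule and ribonuclease genes was followed here, out of 15139 genes in the expression table: Prg2 and Prg3 (the major basic proteins), Epx (eosinophil peroxidase), and Ear1, Ear2 and Ear6 (eosinophil-associated ribonucleases). They were chosen by gene symbol, and all 6 were found. Mouse bone marrow cells had been grown for 1 week in RPMI medium with 10% fetal bovine serum and with the cytokines IL3 (interleukin 3) at 10 ng/ml and SCF (stem cell factor) at 50 ng/ml, and their messenger RNA was sequenced. The wild-type group (WT; MxCre+v: Dnmt3a+/+) had 3 libraries, replicates 1 to 3. The knockout group (KO; MxCre+v: Dnmt3a-/-) had 2, replicates 2 and 3, while its replicate 1 was not analysed here. Both groups therefore carried MxCre, a recombinase transgene under a promoter that responds to interferon, so deletion is not limited to a single blood cell type. The titles call the second group a knockout and another label calls it a knockdown. No strain, age or way of inducing deletion is given in the sources used here. The labels do not say whether replicates were separate animals or cultures, so the p-values measure only the spread between these libraries, which may be partly technical. Sex-linked genes, given below, place the WT libraries in both sexes, so not all of them came from the same animal.

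Eosinophils are white blood cells that store ready-made cationic proteins in large granules and release them against parasites and in allergic inflammation. Major basic protein forms the crystalline core of the granule and damages membranes, and eosinophil peroxidase in the surrounding matrix makes oxidants from halides and hydrogen peroxide. The eosinophil-associated ribonucleases are a family, expanded in rodents, of secreted enzymes that degrade RNA. Their messenger RNAs are made mainly while the granules are being built, in immature cells in the marrow, under factors of the GATA, C/EBP and PU.1 families. IL3 shares its signalling receptor chain with IL5, the main eosinophil growth factor, and it also feeds basophils and mast cells, while SCF acts through Kit on immature cells and mast cells. Dnmt3a adds methyl groups to previously unmethylated DNA.

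The 3 ribonuclease genes are close copies, which bears on how far their levels can be told apart. Ear1 lies on chromosome 14 at 43818765-43819639 (minus strand), Ear2 at 44102654-44103534 (plus strand) and Ear6 at 51853768-51854643 (plus strand) of GRCm38, in the GENCODE M21 annotation. Each has 2 exons, with the whole coding sequence in 1 of them. The stretch from coding base 52 to base 171 is printed below, with capitals at the 22 positions at which the 3 are not all the same. It was picked as the ungapped 120-base stretch with the most differences between Ear1 and Ear2, so it is not typical of the whole coding sequence. It covers chr14:43819239-43819358 (Ear1, minus strand), chr14:44102938-44103057 (Ear2, plus strand) and chr14:51854049-51854168 (Ear6, plus strand).
Ear1: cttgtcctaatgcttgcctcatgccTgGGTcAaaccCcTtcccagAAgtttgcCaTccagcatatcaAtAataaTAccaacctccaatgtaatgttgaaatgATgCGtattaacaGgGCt
Ear2: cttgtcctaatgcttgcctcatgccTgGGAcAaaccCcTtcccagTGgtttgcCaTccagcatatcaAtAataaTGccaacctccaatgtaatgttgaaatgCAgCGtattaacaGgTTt
Ear6: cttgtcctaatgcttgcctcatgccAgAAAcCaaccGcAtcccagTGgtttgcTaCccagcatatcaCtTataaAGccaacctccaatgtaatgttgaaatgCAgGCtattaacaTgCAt

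In this stretch Ear2 differed from Ear1 at 8 of 120 bases and Ear6 at 22. Over the full coding sequence, Ear1 and Ear2 were 95.1% identical, with 23 differences in 468 aligned columns. Ear6 stood further off, at 87.3% identity with Ear1 and 87.6% with Ear2. A sequencing read can be placed only where it spans a difference. Of all 50-base windows of the annotated transcript, 57.4% in Ear1 and 41.5% in Ear2 also occurred in a transcript of another gene, against 1.36% in Ear6. With 100-base windows the shares were 23.9% for Ear1, mostly through the pseudogene Ear-ps9, and 13.9% for Ear2, all of it shared with Ear10, and there were no shared windows in Ear6. Ear10 itself, 97.0% identical to Ear2 in coding sequence, was not analysed here. Neither the read length nor the treatment of reads with several placements is stated in those sources, so the levels of Ear1 and Ear2 are uncertain where reads could be split between copies. A long noncoding RNA gene also overlaps Ear2 on the opposite strand, and reads of the pair cannot be told apart without strand information.

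**Figure D1:**
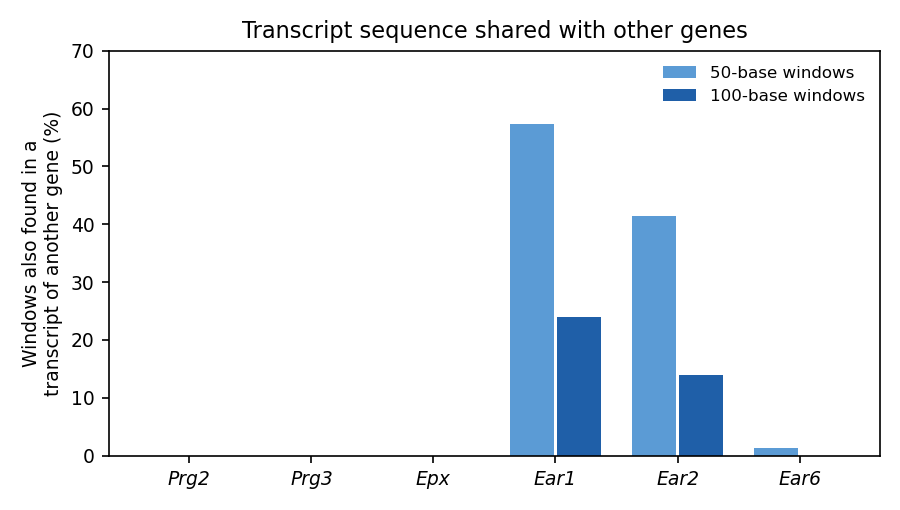
Percent of 50-base and 100-base windows of each annotated transcript that occur exactly in a transcript of another gene, for the 6 genes. Ear1 and Ear2 share 57.4% and 41.5% of 50-base windows, Ear6 shares 1.36%, and Epx, Prg2 and Prg3 share none.

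The other 3 genes had no such copies: no 50-base window of Prg2, Prg3 or Epx occurred in a transcript of another gene. Prg2 (chromosome 2, 84980461-84983632, plus strand) and Prg3 (84988215-84993886, plus strand) are neighbours with 6 exons each, 4582 bases apart, and their coding sequences were 64.5% identical. Epx (chromosome 11, 87864000-87875536, minus strand, 13 exons) has its nearer edge, where its transcript ends, 59.6 kb beyond the end of Mpo, the neutrophil peroxidase gene. Lpo, another peroxidase gene, lies between them. Epx was 70.9% identical to Mpo in coding sequence.

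The bases just before the start of transcription show the same kinship among the ribonuclease genes. RefSeq (GRCm38.p6) gave the 250 bases before the start for 5 of the 6 genes, all but Prg2. Those of Ear1 (chr14:43819640-43819889, minus strand), Ear2 (chr14:44102404-44102653, plus strand), Ear6 (chr14:51853518-51853767, plus strand) and Prg3 (chr2:84987965-84988214, plus strand) are printed because they hold, or in a near copy lack, a motif of a lineage factor. Capitals mark GATAA on either strand (the core that GATA factors bind; TTATC on the printed strand) and TTGCNNAA on either strand (a core that C/EBP factors bind).
Ear1: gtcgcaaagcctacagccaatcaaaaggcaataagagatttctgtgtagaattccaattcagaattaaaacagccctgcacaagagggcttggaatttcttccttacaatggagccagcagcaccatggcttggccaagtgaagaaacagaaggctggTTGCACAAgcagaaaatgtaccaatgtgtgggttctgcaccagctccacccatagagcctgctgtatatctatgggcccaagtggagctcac
Ear2: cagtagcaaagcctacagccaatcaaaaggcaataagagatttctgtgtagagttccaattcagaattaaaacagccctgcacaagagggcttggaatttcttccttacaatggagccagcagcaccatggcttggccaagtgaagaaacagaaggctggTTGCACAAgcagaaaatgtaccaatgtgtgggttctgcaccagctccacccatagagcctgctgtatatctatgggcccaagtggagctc
Ear6: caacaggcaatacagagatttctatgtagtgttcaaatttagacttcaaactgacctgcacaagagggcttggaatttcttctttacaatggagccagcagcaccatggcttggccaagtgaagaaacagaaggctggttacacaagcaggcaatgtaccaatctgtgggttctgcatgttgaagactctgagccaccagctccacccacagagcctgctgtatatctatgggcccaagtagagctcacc
Prg3: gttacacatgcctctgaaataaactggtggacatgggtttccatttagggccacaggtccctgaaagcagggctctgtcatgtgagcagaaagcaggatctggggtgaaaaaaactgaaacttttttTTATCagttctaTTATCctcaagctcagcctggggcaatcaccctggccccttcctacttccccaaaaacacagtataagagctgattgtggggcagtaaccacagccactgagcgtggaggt

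Ear1 and Ear2 were 97.6% identical here, with 6 differences in 252 aligned columns, while Ear6 was 78.2% identical to Ear1 and 77.3% to Ear2. TTGCNNAA stood once before Ear1, 92 bases from the start, and once before Ear2, 90 bases from the start, and not before Ear6, Prg3 or Epx. It occurred in 9.11% of 17492 protein-coding promoters cut to the same length. GATAA stood at 2 places before Prg3 and at none before Epx or the 3 ribonuclease genes, and 20.97% of promoters held it. The PU.1 core GGAAGT on either strand was found only before Prg3 (20.5% of promoters), and TATAA on the coding strand before Epx and Prg3 (15.9%). The motifs were searched separately, so matches of different motifs may overlap. A match describes the letters only.

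Levels are given in FPKM, fragments scaled to transcript length and to library size, as deposited, so they are per length and can be compared between genes. The sum of FPKM ranged from 560387 to 604368 over the libraries, and 11038 to 11090 genes reached 1 FPKM. Read totals are unknown. Dnmt3a, the targeted gene, read 6.68, 9.99 and 9.04 FPKM in WT replicates 1 to 3 and 2.58 and 3.42 FPKM in KO replicates 2 and 3. Its log2 change, KO minus WT, was -1.25 ± 0.17 (SE; adjusted p = 0.00279 by limma). Xist was at 0 to 0.02 FPKM in WT replicate 1 and both KO libraries and at 14.37 and 15.32 FPKM in WT replicates 2 and 3, and the Y-linked Ddx3y showed the opposite. WT replicate 1 and both KO libraries were thus male and WT replicates 2 and 3 female, so sex and genotype are partly confounded.

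None of the 6 genes passed the test between genotypes, while 22.1% of the 11365 tested genes did, 9.08% higher and 13% lower in KO (limma on log2(FPKM + 1), Benjamini-Hochberg adjusted p under 0.05). None of the 6 had an unadjusted p under 0.05 either, against 3944 of all tested genes, and the KO libraries overlapped the WT libraries in every one of them, whereas 51.1% of tested genes had groups that did not overlap, with KO above in 20.4% and below in 30.8%. All 6 were abundant and passed the filter on low values in every library. Their median log2 change was 0.04, beside -0.04 over all tested genes. Of 433 tested genes with a mean of at least 200 FPKM, 32.6% were called.

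Prg2, the main granule core protein, was the highest of the 6 in every library and among the most abundant transcripts in the cultures. It read 4359.91, 5523.12 and 6264.41 FPKM in WT replicates 1 to 3 and 6162.38 and 8017.46 FPKM in KO replicates 2 and 3. By level it ranked 8, 6 and 5 among all genes in the WT libraries and 3 and 2 in the KO libraries. KO replicate 3 lay above every WT library, and KO replicate 2 lay between WT replicates 2 and 3. The mean was 5382 ± 960 FPKM (SD, n = 3) in WT and 7090 ± 1312 (n = 2) in KO. The log2 change was 0.40 ± 0.19 (SE; 95% interval -0.05 to 0.86; limma adjusted p = 0.191), so the difference did not pass the test, and the interval runs from a fold of 0.963 to 1.81.

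Prg3, the second major basic protein, was the lowest of the 6 in every library. Its levels were 213.52, 257.29 and 303.78 FPKM in WT and 258.98 and 308.42 FPKM in KO. KO replicate 2 lay between WT replicates 2 and 3, and KO replicate 3 just above all of WT. The log2 change was 0.14 ± 0.15 (SE; 95% interval -0.21 to 0.50; limma adjusted p = 0.549).

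Epx, which encodes the granule peroxidase, had almost the same mean in both genotypes, 579 ± 96.0 FPKM (SD, n = 3) in WT and 563 ± 159 (n = 2) in KO. The libraries read 497.26, 554.45 and 684.55 FPKM in WT and 450.11 and 675.42 FPKM in KO. The KO pair was spread as widely as the 3 WT libraries, with 1 KO library below all of WT and the other just below the highest. The log2 change was -0.06 ± 0.20 (SE; 95% interval -0.52 to 0.40; limma adjusted p = 0.869).

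Among the ribonucleases, Ear6 was the most abundant in every library. It read 532.68, 773.74 and 876.90 FPKM in WT and 724.27 and 1168.54 FPKM in KO. KO replicate 3 lay above all WT libraries and KO replicate 2 below 2 of them. The log2 change was 0.37 ± 0.26 (SE; 95% interval -0.24 to 0.97; limma adjusted p = 0.357).

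Ear2 had the lowest estimate of change. It read 359.01, 646.34 and 677.93 FPKM in WT and 360.71 and 458.25 FPKM in KO. Both KO libraries lay below WT replicates 2 and 3 and above WT replicate 1. The log2 change was -0.41 ± 0.27 (SE; 95% interval -1.04 to 0.23; limma adjusted p = 0.331).

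Ear1 had the widest spread within WT, with its highest library 2.32 times its lowest. It read 216.73, 447.38 and 501.96 FPKM in WT and 282.22 and 433.03 FPKM in KO. Both KO libraries fell in the gap between WT replicate 1 and the other WT libraries. The log2 change was -0.06 ± 0.36 (SE; 95% interval -0.90 to 0.78; limma adjusted p = 0.921), the widest interval of the 6.

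The authors' deposited table made no call on these genes by its adjusted p either. In the authors' deposited table, the signed ratio of group means was 1.32 for Prg2 (adjusted p = 0.584) and -1.37 for Ear2 (adjusted p = 0.151). For Ear2, the authors' deposited table gives an unadjusted p of 0.0124 in its second test and 0.346 in its first.

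**Figure D2:**
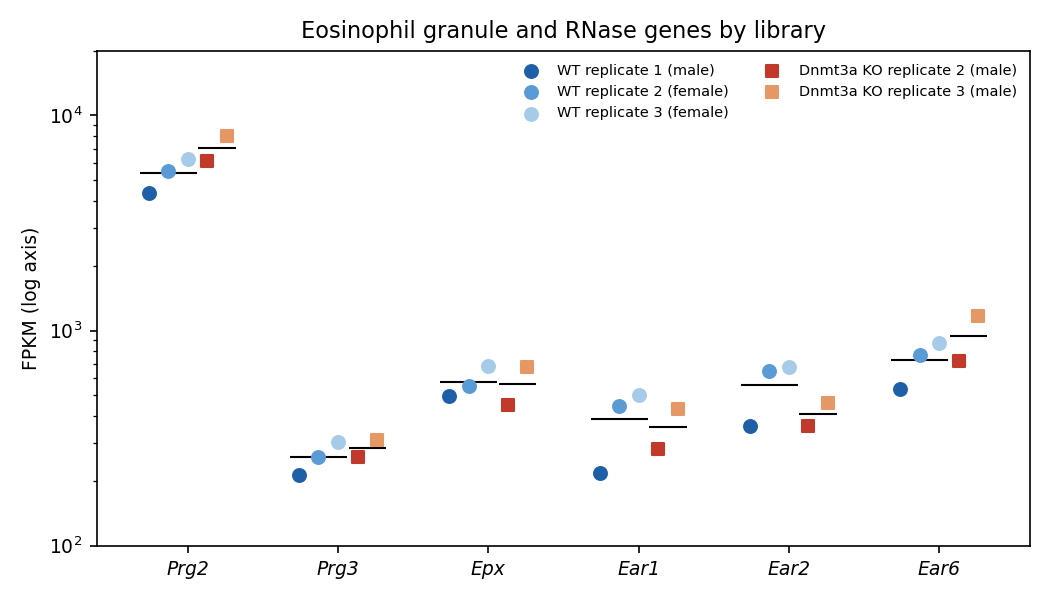
FPKM (log axis) of each gene in each library, with WT as circles, KO as squares and horizontal lines at the group means. WT replicate 1 is the lowest WT library for all 6 genes, and the KO libraries overlap the WT libraries for all 6.

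The order of levels was nearly the same in every library: Prg2, then Ear6, then Epx and Ear2, then Ear1, then Prg3. Epx and Ear2 were neighbours that changed places, with Epx the higher in 4 of 5 libraries. Their WT means, 579 and 561 FPKM, differed by less than the WT SD of either, 96.0 and 176 FPKM. In KO replicate 3 they stood further apart, at 675.42 and 458.25 FPKM. The lowest Prg2 level lay above the highest of any other of the 6, and every other pair of neighbours in the order overlapped over the 5 libraries. Together the 6 genes summed to 6179.11, 8202.32 and 9309.53 FPKM in WT and to 8238.67 and 11061.1 FPKM in KO. That was 1.02%, 1.40% and 1.59% of all FPKM in the WT libraries and 1.36% and 1.97% in the KO libraries, most of it from Prg2. In bulk RNA, fewer cells of a type and less RNA per cell cannot be told apart.

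The 6 genes moved together between libraries of the same genotype. WT replicate 1 was the lowest WT library for 6 of 6 and for 35% of all tested genes. WT replicate 3 was the highest WT library for 6 of 6, against 34.6% of tested genes, and KO replicate 3 stood above KO replicate 2 for 6 of 6, against 54.6%. The 6 genes share these libraries, so the counts describe 5 libraries and not 6 independent observations. Between the KO libraries the ratio ran from 1.19 for Prg3 to 1.61 for Ear6, and between the highest and lowest WT libraries from 1.38 for Epx to 2.32 for Ear1.

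The estimates for Ear1 and Ear2 depended on WT replicate 1, the male WT library. Without it, Ear2 passed the test and was lower in KO by limma, at -0.70 ± 0.14 (log2, SE; adjusted p = 0.0150). With sex as a covariate, a fit that sets the KO libraries against WT replicate 1 alone, the Ear2 estimate turned to 0.18 (adjusted p = 0.557). Ear1 was at -0.44 without WT replicate 1 and at 0.69 with the sex term (adjusted p = 0.129). The same term gave 0.69 for Prg2 (adjusted p = 0.118), 0.40 for Prg3 (0.171), 0.79 for Ear6 (0.121) and 0.15 for Epx (0.757), so none of the 6 passed. Among the 3 male libraries, both KO libraries lay above WT replicate 1 for 5 of the 6 genes, all but Epx, as they did for 32.7% of tested genes. The estimates with the sex term rest on 1 WT library.

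**Figure D3:**
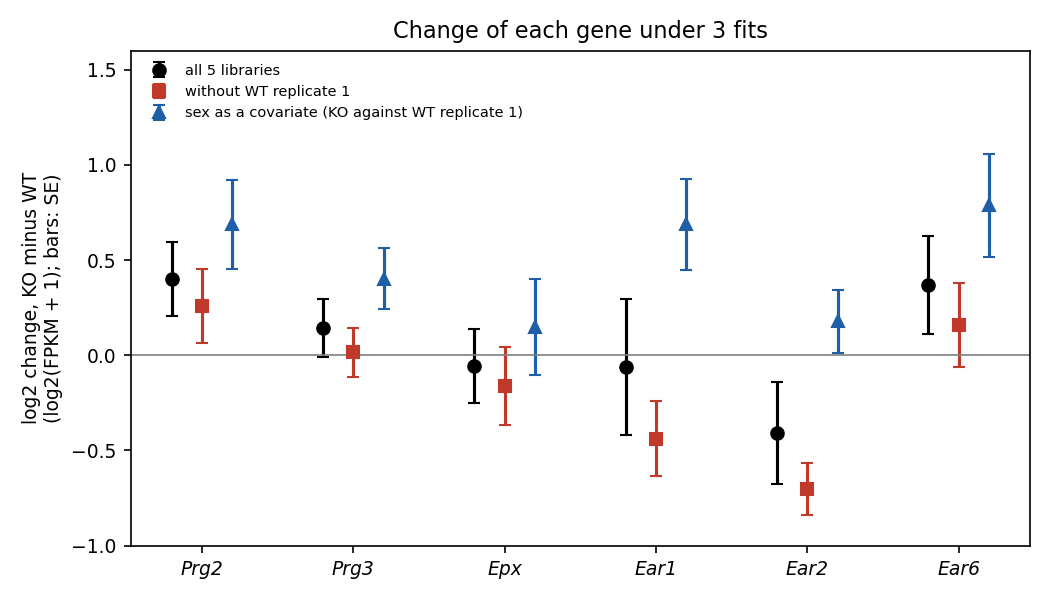
Log2 change, KO minus WT, on the log2(FPKM + 1) scale with SE bars, for each gene from all 5 libraries, without WT replicate 1, and with sex as a covariate. Ear1 and Ear2 move from -0.44 and -0.70 without WT replicate 1 to 0.69 and 0.18 with the sex term.

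The female WT libraries were set against the male one, from the fit with genotype and sex. Ear1 was higher in the female libraries by 1.13 ± 0.24 on the log2 scale (SE; limma adjusted p = 0.436) and Ear2 by 0.88 ± 0.17 (adjusted p = 0.344). Neither passed the threshold, which 12 of the 11365 tested genes (0.106%) did, 8 of them (0.0704%) higher in female. Prg2, at 0.43, Prg3, at 0.39, and Epx, at 0.31, had smaller differences, and Ear6 was at 0.63 (adjusted p = 1.00 for each of these 4). Sex and any other property of that single male WT library cannot be told apart.

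A close relative on the same chromosome was also low in WT replicate 1. Rnase2a, another eosinophil-associated ribonuclease, which was picked out after its values were seen, read 15.63 FPKM in WT replicate 1 and 57.97 and 58.31 FPKM in WT replicates 2 and 3, with 26.35 and 17.74 FPKM in KO. Its log2 change was -0.78 with all libraries (limma adjusted p = 0.349), and it was called at -1.39 without WT replicate 1 (adjusted p = 0.00275). With the sex term it was 0.45 (adjusted p = 0.245). Unlike Ear1 and Ear2, it was lower in KO replicate 3 than in KO replicate 2. Rnase2a is 78.9% identical to Ear1 in coding sequence.

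Each gene was also matched to the 2 others, out of 6095 with a mean of at least 10 FPKM, whose centred log2(FPKM + 1) profile over the 5 libraries lay nearest by root mean square difference. The nearest to Ear1 were Vamp7 (0.116) and Kdm6a (0.158), beside a spread of 0.459 in Ear1 itself. The nearest to Ear2 were Kdm6a (0.125) and Kdm5c (0.139), with a spread of 0.395 in Ear2. Vamp7, Kdm6a and Kdm5c all lie on the X chromosome, and Kdm6a read 6.74 FPKM in WT replicate 1, 12.75 and 13.08 FPKM in the female WT libraries and 8.28 and 10.34 FPKM in KO. Ear6 had Alox15 (0.0521), a lipoxygenase of eosinophils, and Serpinb2 (0.0840) nearest to it. Prg2 had Plk2 (0.0569) and Serpinb2 (0.0656), Prg3 had Cd226 (0.0411) and Rps6kb2 (0.0528), and Epx had Lama5 (0.0663) and Myo1d (0.0779). The genes nearest to the other 4 were autosomal. Kdm6a was near to both Ear1 and Ear2, so their matches are not separate observations. The share of X-linked genes among the 6095 was not counted. A match over 5 libraries is a description.

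Ratios between the genes within a library cancel what moves all of them together. The ratio of Prg2 to Epx was 8.77, 9.96 and 9.15 in WT and 13.7 and 11.9 in KO. Prg2 to Prg3 was 20.4, 21.5 and 20.6 in WT and 23.8 and 26.0 in KO. Both ratios were narrow within WT and higher in each KO library. Among the ribonucleases, Ear6 to Ear2 was 1.48, 1.197 and 1.29 in WT and 2.01 and 2.55 in KO. Ear1 to Ear2 was 0.604, 0.692 and 0.740 in WT and 0.782 and 0.945 in KO, with the limit on these 2 genes from shared sequence. Both of these ratios were higher in each KO library. By contrast, Prg2 to Ear6 overlapped, at 8.18, 7.14 and 7.14 in WT and 8.51 and 6.86 in KO. In all, 8 of the 15 ratios did not overlap between genotypes (53.3%), which is below the 69% of 93528 ratios between genes with means of at least 200 FPKM. The ratios were not tested and are given as descriptions.

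**Figure D4:**
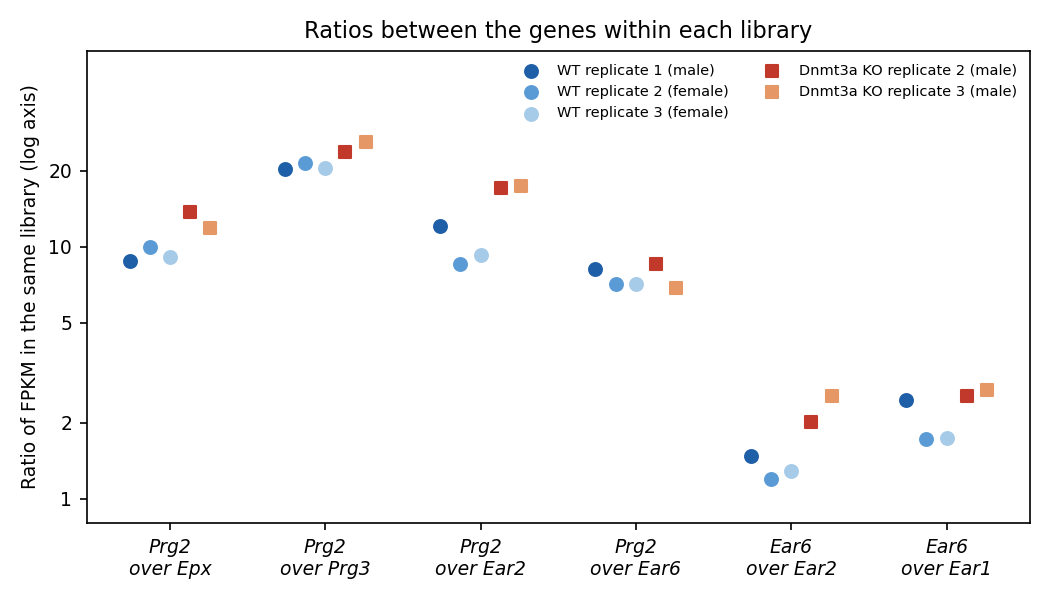
Ratios of FPKM between the genes within each library, on a log axis, WT as circles and KO as squares. Prg2 to Epx is 8.77 to 9.96 in WT and 11.9 to 13.7 in KO, while Prg2 to Ear6 overlaps between the genotypes.

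Granule genes of other lineages are given for comparison. Mpo, the neutrophil and monocyte peroxidase, read 353.88, 341.81 and 317.93 FPKM in WT and 121.90 and 114.59 FPKM in KO, and fell by 1.51 ± 0.08 on the log2 scale (SE; limma adjusted p = 0.000236). Epx over Mpo was accordingly 1.41, 1.62 and 2.15 in WT and 3.69 and 5.89 in KO. Cpa3, the mast cell carboxypeptidase, rose by 1.39 on the log2 scale (adjusted p = 0.000850), and Prg2 over Cpa3 was 0.603, 0.843 and 0.827 in WT and 0.314 and 0.457 in KO. Relative to these genes, then, Epx stood higher against the neutrophil peroxidase in both KO libraries, and Prg2 stood lower against the mast cell protease.

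Over all tested genes, 9.08% were called higher in KO and 13% lower, the background for the counts in this and the following lists. Of 18 listed genes of the wider ribonuclease family and its inhibitor, 7 could be tested, and 4 fell and none rose, with a median log2 change of -0.65. Those that fell were Ang (-0.93), which encodes angiogenin, Rnase12 (-0.85), Rnase4 (-0.65) and Rnh1 (-0.51), the cytosolic inhibitor, which binds and blocks ribonucleases of this family and is not itself one of them. The limma adjusted p-values were 0.00417, 0.0145, 0.0117 and 0.00774. The calls of Rnase12 and Rnase4 were lost without KO replicate 3, and Rnase12 also without KO replicate 2. With the sex term Rnase12 (-0.47), Rnase4 and Rnh1 were not called, and Ang still was. Rnase2b, picked out after its values were seen, was called higher in KO there (0.97), against 0.14 with all libraries (limma adjusted p = 0.831). It was near the floor, at 0.19, 1.69 and 1.95 FPKM in WT and 1.07 and 1.63 FPKM in KO. The estimate of 0.97 rests on WT replicate 1, at 0.19 FPKM.

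Of 16 listed eosinophil receptor and surface genes, 14 were tested, 7 rose and 3 fell, with a median log2 change of 0.42. Those that rose were Il1rl1 (1.28), the IL33 receptor, Ccr3 (1.00), the eotaxin receptor, Csf2rb2 (0.83), Il3ra (0.74) and Csf2rb (0.47), which are chains of the IL3 receptor family, Hrh4 (0.67), a histamine receptor, and Cd24a (0.41). Csf2ra (-1.16), the GM-CSF receptor chain, Itgam (-0.85) and Pirb (-0.39) fell. Ccr3 was at 1.72, 2.58 and 3.65 FPKM in WT and 4.96 and 7.47 FPKM in KO (limma adjusted p = 0.0264), and its call was lost without WT replicate 2 or KO replicate 3. Those of Csf2rb and Pirb were lost without any 1 of the WT libraries, and that of Cd24a without WT replicate 2 or 3. The calls of Csf2rb and Cd24a were also lost with a replicate block. With the sex term Hrh4, Csf2rb, Pirb and Cd24a were not called. Fpr2, picked out after its values were seen and not called with all libraries (-0.63), kept its sign there and was lower, at -1.26. It read 43.34 FPKM in WT replicate 1, the WT library on which that estimate rests, and at most 23.46 FPKM in the others. Without WT replicate 2 the list had 4 genes higher and 2 lower. Several of the genes that rose, among them Il1rl1 and the IL3 receptor chains, are also made by mast cells and basophils.

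Among the listed receptors, Il5ra and Siglecf were present but low and did not pass the test, unlike Ccr3 above. Il5ra, the IL5 receptor chain, which was picked out after its values were seen, read 3.14, 4.16 and 5.25 FPKM in WT and 4.23 and 7.97 FPKM in KO (log2 change 0.42, limma adjusted p = 0.286). Siglecf, an eosinophil lectin picked out in the same way, read 10.58, 14.47 and 16.72 FPKM in WT and 11.39 and 17.00 FPKM in KO (0.02, adjusted p = 0.953). The KO libraries overlapped the WT libraries for Il5ra and for Siglecf, whereas both KO libraries lay above all of WT for Ccr3.

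All 15 listed transcription factors of the lineage were tested: 4 rose and 6 fell, with a median log2 change of -0.13. Gata1 (0.71) and Gata2 (0.68), which drive eosinophil as well as mast cell and basophil genes, rose, and so did Hes1 (1.47), a Notch target, and Id2 (0.30). Irf8 (-1.87), Cebpa (-0.65), Spi1 (-0.57), which encodes PU.1, Bcl6 (-0.55), Id1 (-0.55) and Cebpb (-0.43) fell. Factors known to act on granule genes were therefore found on both sides. Cebpe, which late granule genes need and which was picked out after its values were seen, was at -0.13 (limma adjusted p = 0.476). Without KO replicate 3 it was called, at an adjusted p of 0.0344, and the calls of Id2 and Bcl6 were lost without KO replicate 2 or 3 and without WT replicate 1 or 2, that of Id2 also without WT replicate 3. Id2, Bcl6 and Cebpb were not called with the sex term (adjusted p 0.0555 to 0.214).

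All 14 listed granule maturation and traffic genes were tested, 4 rose and 2 fell, and their median log2 change was 0.02. Srgn (1.06), the proteoglycan core that packs cationic granule proteins, read 1845.84 to 2067.19 FPKM in WT and 4082.18 and 4193.34 FPKM in KO (limma adjusted p = 0.000767). Cst7 (0.83), an inhibitor of granule cathepsins, Vamp2 (0.45) and Stx3 (0.44), which take part in membrane fusion, rose. Ctsl (-1.07) and Ctsc (-0.55), cathepsins that process granule proteins, fell. The call of Vamp2 was lost without WT replicate 1, WT replicate 2 or KO replicate 3, and that of Ctsl without KO replicate 3. Neither was called with the sex term, where Ctsl was at -0.68. Vamp7, also of this list and not called with all libraries (-0.09), moved the other way there, to 0.70. It read 5.55 FPKM in WT replicate 1, the WT library on which that estimate rests.

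Of the 6 lipid mediator genes, 3 rose and 1 fell, with a median log2 change of 0.64. Ltc4s (0.96), Ptgs2 (0.95) and Alox5 (0.86), enzymes of leukotriene and prostaglandin synthesis, rose, and Ptgs1 (-0.46) fell. Alox15, whose profile lay nearest to Ear6, read 60.58, 96.29 and 102.45 FPKM in WT and 90.90 and 139.49 FPKM in KO, and it did not pass (0.41, limma adjusted p = 0.297). The call of Ptgs2 was lost without WT replicate 2 or KO replicate 3. Neither Ptgs2 (adjusted p = 0.0921) nor Ltc4s (0.0797) was called with the sex term, which left 1 gene higher and 1 lower.

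Markers of other myeloid cells moved with genotype beside these lists. Of 11 mast cell markers, 8 rose and none fell (median 0.99), with a summed level of 11642.4 to 13373.8 FPKM in WT and 27488.9 to 31694.1 FPKM in KO. Cpa3 and Tpsb2 (1.30), a mast cell tryptase, had the highest means over the 5 libraries. The chymase Cma1, picked out after its values were seen, exceeded Tpsb2 in each WT library, at 2222.73, 1803.08 and 2001.78 FPKM in WT and 3820.93 and 1694.80 FPKM in KO, and was not called (0.35, limma adjusted p = 0.471). The summed level was higher in both KO libraries. Of 6 basophil markers, 3 rose (median 0.44; sums of 5930.87 to 7470.79 FPKM in WT and 7518.90 to 7749.17 in KO), while the basophil proteases Mcpt8 (-0.22, limma adjusted p = 0.306) and Prss34 (-0.06, adjusted p = 0.862) did not pass. The basophil list was thus mixed, with its most abundant genes uncalled. Of 11 tested neutrophil markers, 10 fell (median -0.86; sums of 22428.2 to 33055.1 FPKM in WT and 12844.7 to 16667.1 in KO), S100a9 (-0.82) and S100a8 (-0.86) being the most abundant. The list had 4 genes that fell without WT replicate 2, 5 without KO replicate 3 and 5 with no filter on low values. The calls of S100a9 and S100a8 were lost under these 3 settings and with a replicate block, that of S100a9 also without WT replicate 1 or 3 and with median-of-ratios scaling. Of 12 monocyte and macrophage markers, 10 fell (median -1.49; sums of 6242.69 to 8128.68 FPKM in WT and 2589.96 to 2796.72 in KO), with Lyz2 at -1.89 and Ly6c2 at -0.04 (adjusted p = 0.833). No gene of these lists was at 0 in all libraries. The part of these cells in the levels of the granule and receptor genes was not tested.

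Against the mean of WT, the median deviation of the 6 granule and ribonuclease genes was -0.35, 0.09 and 0.28 on the log2 scale in WT replicates 1 to 3 and -0.17 and 0.26 in KO replicates 2 and 3. The KO values fell inside the WT range. The neutrophil markers ran the other way within WT, at 0.31, -0.09 and -0.21, and lay outside the WT range in KO, at -0.71 and -0.998. Mast cell markers were at 0.93 and 1.12 in KO, and monocyte and macrophage markers at -1.39 and -1.62. WT replicate 1 thus had the lowest eosinophil granule levels and the highest neutrophil marker levels of the WT libraries.

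**Figure D5:**
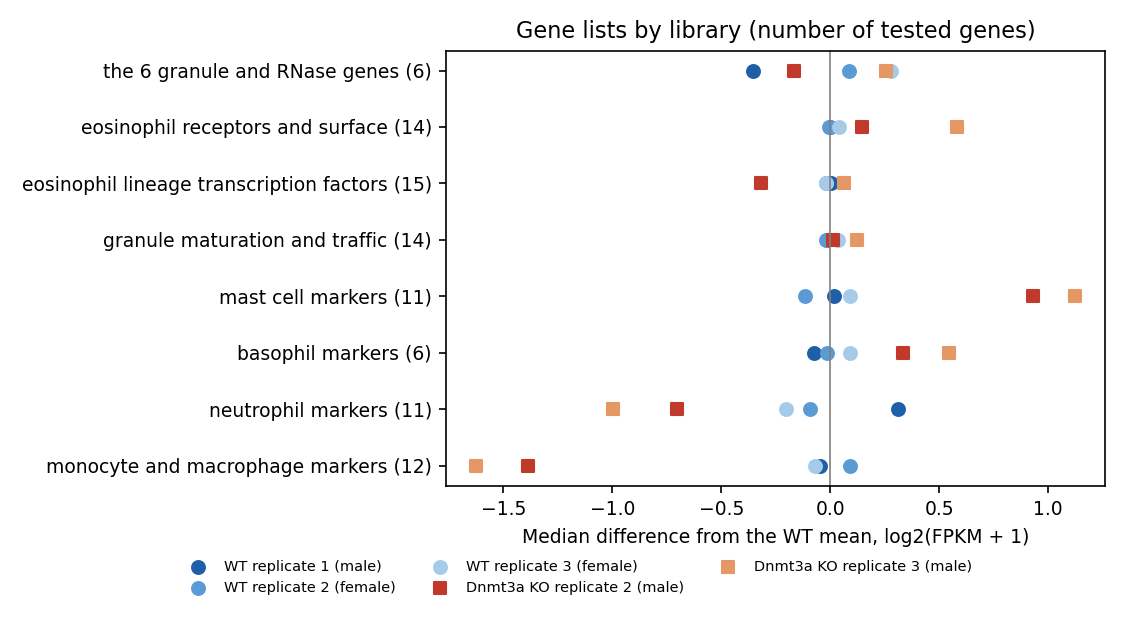
Median difference from the WT mean, on the log2(FPKM + 1) scale, of the tested genes of each list in each library. The 6 granule and ribonuclease genes span -0.35 to 0.28 in WT and -0.17 to 0.26 in KO, while mast cell markers reach 0.93 and 1.12 and monocyte and macrophage markers -1.39 and -1.62 in KO.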

How the data were processed

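Messenger RNA selected with oligo(dT) from cultured bone marrow cells was sequenced on a HiSeq instrument, per the labels' protocols. HISAT, StringTie 1.2.1, edgeR and the build mm10 are listed, without roles, in the submitters' processing notes. The authors deposited FPKM per gene, rounded to 2 decimals, and a signed fold that is treated here as a score. They also deposited p-values and adjusted p-values of 2 tests of their own, whose inputs no source used here gives. Low FPKM values of genes with a single transcript held a partial common step in each library. Its strength was 0.37 to 0.52, where noise alone gives about 0.22 to 0.26. Whole reads were not recovered from this step, so the depth and counting error of each library remain unknown.

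Here, limma 3.58.1 (R 4.3.3) was fitted to log2(FPKM + 1), with genotype as the only term, empirical Bayes moderation and a mean-variance trend. The 11365 genes with 1 FPKM or more in at least 2 libraries were tested, with Benjamini-Hochberg adjustment over all of them. Fold changes on this scale understate low genes. The script was tested on simulated data. Sex was read from Xist and Ddx3y. The members and lists were chosen with earlier results of these data known. Named genes were the 6 members, list genes past the threshold (filled to 3 by mean FPKM where fewer passed), the 2 most abundant markers per other cell type, the 2 nearest profiles per member and Dnmt3a. Others are marked as picked out after their values were seen. Sequences came from RefSeq (GRCm38.p6 promoters) and GENCODE M21 (transcripts). Alternatives covered the pseudocount, filters, scaling, trend, robust moderation, each library left out, a replicate block and a sex term.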

Additional observations from a re-analysis of the deposited data

How the results depend on the processing

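Over 14 alternatives, Prg2, Prg3 and Ear6 kept a positive estimate and none passed (lowest limma adjusted p 0.0853, 0.171 and 0.108). Of the 6 genes, the number called was 0 with all libraries, 0 to 1 with a library left out, and 1 with a replicate block, each time Ear2, which was at -0.70 with the block (adjusted p = 0.00984). Only numbers 2 and 3 are shared by both genotypes, and deviations correlated at -0.03 for number 2 and 0.10 for number 3. The deviations of the 2 KO libraries from their mean are mirror images. These correlations therefore cannot show whether libraries of the same number were paired. The block leaves WT replicate 1 without a partner, so its estimates equal those without that library, as for Ear2 at -0.70. The block is thus not a separate check from leaving out WT replicate 1. With the sex term the estimates of Ear1, Ear2, Epx, Rnase2a and Prss34 turned to 0.69, 0.18, 0.15, 0.45 and 0.33. Upper-quartile scaling turned Epx to 0.0249, Ear1 to 0.0190, Prss34 to 0.0242 and Ly6c2 to 0.0459, and median-of-ratios scaling turned Ly6c2 to 0.0104. With a library left out, Epx ran from -0.35 to 0.24, Ear1 from -0.44 to 0.25, Siglecf from -0.25 to 0.29, Cebpe from -0.32 to 0.0629, Prss34 from -0.25 to 0.0736 and Ly6c2 from -0.10 to 0.0309. Siglecf was at -0.15 with the replicate block. The causes were not tested.

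Over all tested genes, 2507 were called, 1312 with the sex term, and 1623 (without WT replicate 2) to 2659 with a library left out. The share of calls that were higher in KO was 41.2%, 49.6% with median-of-ratios scaling and 54.0% with upper-quartile scaling. Of 35 called genes of the lists of other ribonucleases, peroxidases, receptors, factors, granule traffic and lipid mediators, 20 kept their call under every alternative that tested them and none changed sign, while 14 lost it with the sex term, and 8 each without WT replicate 2 and without KO replicate 3. With 5 libraries, 3 residual degrees of freedom and unknown depth, changes smaller than the intervals above cannot be told from the spread between libraries.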
